A study of Mus musculus with 6 samples.

Results

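Lone m6A stretches are continuous regions of m6A enrichment that lie more than 100 kb from any other such region on the same chromosome. They were taken from a list of enriched regions in the midbrain and striatum of adult C57BL/6 mice with a global Fto knockout. Listed rows on chromosomes 1 to 19 that touched end to end were joined into stretches. Members were chosen by these gaps: a stretch was kept when the gap on both sides exceeded 100 kb, and the first and last stretch of each chromosome were left out. This gave 1258 lone stretches out of 18943 stretches (6.64%), or 1758 of the 29950 rows of the whole list. The rule read the start and end of every row, so the gaps around lone stretches are a description of how they were chosen. Stretch length, place along the chromosome and the kind of the nearest neighbour were not read by the rule. Rows were joined only when they touched, however, so an isolated region listed with a small break counts as close stretches and cannot be lone. Length is therefore not wholly free of the rule. The gaps still limit how closely lone stretches can lie along a chromosome.

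N6-methyladenosine (m6A) is an internal mark of messenger and noncoding RNA. It is written by a methyltransferase complex built around Mettl3 and Mettl14, read by proteins such as those of the YTH family, and removed by the demethylases Fto and Alkbh5. In mRNA it is known to concentrate near stop codons and in long exons, so that several sites often fall in the same transcript. Fto is expressed in neurons, including those of the dopaminergic midbrain that project to the striatum.

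RNA depleted of ribosomal RNA was immunoprecipitated with an antibody against m6A in consecutive rounds and sequenced, an assay called MeRIP. The series has 3 MeRIP libraries and 3 input libraries made without immunoprecipitation, and all 6 come from the Fto knockout. The labels do not say how the knockout was made, whether midbrain and striatum were pooled, or whether the libraries come from separate animals. All 6 point to the same list of regions, which has no read count, height, p-value, strand or value per library. Read depth is therefore unknown, the differences below have no replicate check, and no test was made of them. Control mice were not analysed here, and nothing below speaks to the effect of the knockout. The list is in mm9 coordinates, given here counted from 1. Neither a genome nor a gene annotation of mm9 was used, so lone stretches were not assigned to genes, exons or introns, the labelled tissue was not checked against marker genes, and no sequence is shown. Whether lone stretches mark gene-poor areas or long genes could be described only through the number of genes on each chromosome.

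Lone stretches were short. Their length ran from 100 to 1300 bp, with a median of 175 bp, an interquartile range of 125 to 250 bp and a mean of 205.6 bp ± 116.3 (SD over 1258 stretches). The 12581 stretches with a neighbour within 5 kb, called neighboured below, had a median of 200 bp, an interquartile range of 150 to 275 bp and a mean of 240.1 bp ± 152.5 (SD over stretches). The means differed by 34.4 bp and the medians by 25 bp, which is a single step of the 25 bp grid on which every stretch starts and ends. The difference in means is far below the SD of either group, and the distributions overlap over most of their range. The 5066 stretches in between, with a nearest gap over 5 kb that were not lone, had a median of 175 bp and a mean of 221.1 bp ± 135.8 (SD over stretches).

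The shortest lengths and the longest ones moved in opposite directions. At the lower end, 173 lone stretches (13.8%, exact binomial 95% interval 11.9 to 15.8) had the minimum length of 100 bp, compared with 1363 neighboured stretches (10.8%, 10.3 to 11.4). At the upper end, 17 lone stretches (1.35%, 0.789 to 2.15) reached 600 bp, compared with 436 neighboured stretches (3.47%, 3.15 to 3.80). Rows in the list are at most 200 bp long and longer stretches are divided, so a stretch over 200 bp is also one listed as more than 1 row. Of the lone stretches, 407 (32.4%, 29.8 to 35.0) exceeded 200 bp, against 5448 neighboured stretches (43.3%, 42.4 to 44.2). The shares differed by 10.95 percentage points. These intervals (Clopper-Pearson) reflect counting error alone, as if stretches were independent. Neighbouring stretches can belong to the same transcript, so the intervals of the neighboured group are too narrow.

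**Figure D1:**
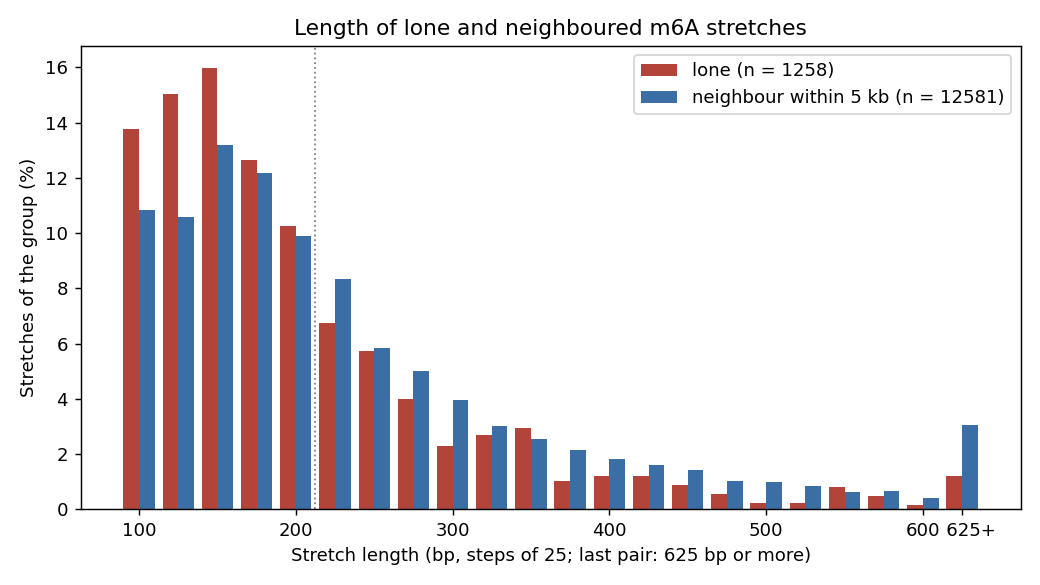
Percentage of lone (red) and neighboured (blue) stretches at each length in bp, in steps of 25 bp, with all lengths beyond 600 bp in the last pair of bars and a dotted line above 200 bp. Lone stretches have taller bars from 100 to 200 bp, and 32.4% of them lie right of the line against 43.3% of neighboured stretches.

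By listed rows, 851 lone stretches were a single row, 335 were 2 rows and 72 were 3 or more, with a maximum of 7. Lone stretches thus made up 6.64% of the stretches and 5.87% of the covered bases, 258700 bp in all. Neighboured stretches made up 66.4% of the stretches and 68.5% of the covered bases.

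The lower length of lone stretches was found on nearly every chromosome. The mean length of lone stretches was below that of neighboured stretches on 18 of the 19 chromosomes, and their share over 200 bp was lower on all 19. Taken per chromosome, mean length was 204.7 bp ± 14.0 (SD, n = 19 chromosomes) for lone and 239.3 bp ± 9.04 for neighboured stretches. The lone median was lower on 17 chromosomes, equal on 1 and higher on 1. Chromosome 4 was the exception in both, with a mean of 234.2 bp in 68 lone stretches and 225.8 bp in neighboured ones, and medians of 187.5 and 175 bp. Without its longest lone stretch, of 1300 bp, the lone mean of chromosome 4 was 218.3 bp and the lone median 175 bp. Only the lone group was trimmed in this way, and leaving out a longest stretch always lowers a mean. The share over 200 bp on chromosome 4 was nearly equal, at 38.2% of lone and 38.8% of neighboured stretches.

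Stretches were longest beside a close neighbour, and beyond a nearest gap of 20 kb the counting intervals of their share over 200 bp overlapped. The share over 200 bp was 46.7% (45.5 to 48.0) in the 6173 stretches with another within 200 bp. It was 38.6% (36.6 to 40.6) for a nearest gap of 1 to 5 kb and 39.6% (37.6 to 41.6) for 5 to 20 kb. For 20 to 50 kb it was 33.9% (31.6 to 36.1) and for 50 to 100 kb 33.4% (30.4 to 36.4). Within the lone group it was 31.6% (28.1 to 35.2) for a nearest gap of 100 to 200 kb and 32.1% (27.7 to 36.8) for 200 to 500 kb. The 153 lone stretches with a nearest gap over 500 kb had 36.6% (29.0 to 44.8). The intervals of these last 5 groups overlap, so no step in this share was seen at the boundary of 100 kb. Mean length was 217.8 bp for 20 to 50 kb, 208.9 bp for 50 to 100 kb and 203.6 bp for 100 to 200 kb. It was 207.4 bp for 200 to 500 kb and 210.0 bp over 500 kb. The SD over stretches was at least 113.4 bp in each of these groups, and differences between these means were not tested.

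**Figure D2:**
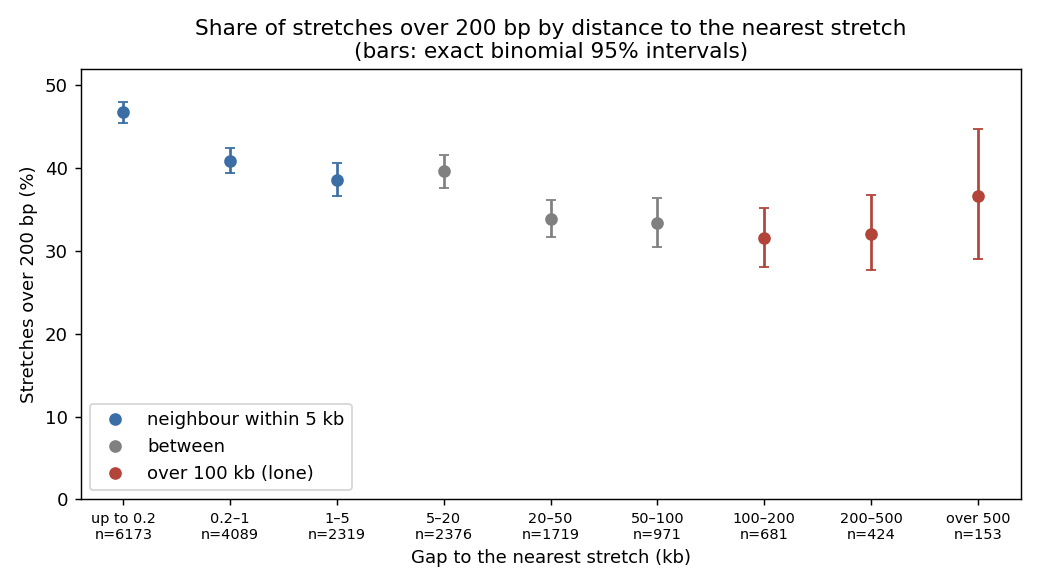
Percentage of stretches over 200 bp (vertical axis) against the gap to the nearest stretch in kb (horizontal axis, unequal classes), with exact binomial 95% intervals as bars. Points fall from 46.7% at the shortest gaps to 33.9% at 20 to 50 kb, and the 3 red points of lone stretches lie between 31.6% and 36.6%.

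Stretches lay closely on both sides of the boundary. The lone stretch nearest to it was a 125 bp stretch at chr11:73137826-73137950, with a nearest gap of 100.225 kb. Next came a pair on chromosome 5, chr5:20108226-20108325 (100 bp) and chr5:20208576-20208775 (200 bp), which are 100.25 kb apart. Just outside lay a 175 bp stretch at chr1:94917026-94917200 and a 225 bp stretch at chr12:73509576-73509800, both with a gap of exactly 100 kb. A 175 bp stretch at chr1:66847951-66848125 followed, with 99.9 kb.

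Isolation and being alone were then separated. Stretches up to 5 kb apart were joined into clusters, and a cluster more than 100 kb from the next on both sides was called isolated. There were 2062 isolated clusters, and lone stretches are those of them that hold a single stretch. They made up 61.0% of the isolated clusters (58.9 to 63.1). Among the 8553 other clusters, with chromosome ends left out, 59.2% (58.2 to 60.3) held a single stretch. The 2 shares differ by less than 2 percentage points and their intervals overlap. Over 6 classes of gap, the single share was highest at 100 to 200 kb, with 62.2% (59.2 to 65.1), and lowest over 500 kb, with 56.5% (50.3 to 62.4). At 5 to 20 kb it was 57.6% (56.1 to 59.1). The remaining 804 isolated clusters held 2 to 10 stretches, so 39.0% of the isolated places carried several stretches. This comparison was chosen after lengths and gaps had been seen.

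Stretches in isolated clusters of 2 or more were longer than lone stretches. The 2316 stretches of these clusters had a mean of 232.8 bp ± 136.5 (SD over stretches), which is 27.1 bp above the lone mean, and 41.3% of them (39.3 to 43.3) exceeded 200 bp. Single stretches that were not isolated had a mean 15.5 bp above the lone mean, with 36.5% (35.1 to 37.8) over 200 bp. Stretches in clusters of 2 or more that were not isolated had a mean of 241.7 bp ± 155.8 (SD over stretches), with 43.8% (42.8 to 44.7) over 200 bp. Lone stretches were thus the lowest of the 4 groups in mean length. Stretches with and without another in their 5 kb cluster differed by 27.1 bp in isolated places and by 20.6 bp elsewhere. Isolated stretches and others differed by 15.5 bp when single and by 8.97 bp when clustered. Within isolated clusters the share over 200 bp was 38.8% (35.4 to 42.2) in pairs and 45.8% (40.8 to 51.0) in clusters of 4, whose intervals overlap.

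**Figure D3:**
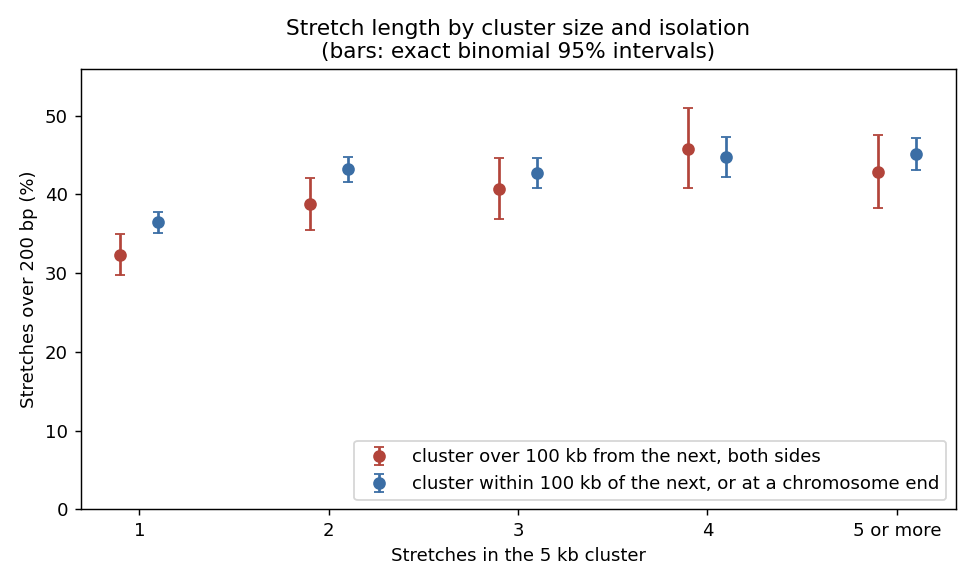
Percentage of stretches over 200 bp (vertical axis) by the number of stretches in their 5 kb cluster (horizontal axis), for isolated clusters (red) and others (blue), with exact binomial 95% intervals as bars. The red point at 1 is the lone stretches, the lowest of the 10 points at 32.4%, and the red and blue intervals overlap for clusters of 2 or more but not at 1. The blue point at 1 pools nearest gaps of 5 to 100 kb.

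The gaps beside lone stretches covered about as much of the genome as all other gaps. Over the 19 chromosomes, the span from first to last stretch was 2394.3 Mb, of which gaps over 100 kb took up 89.95%. The 2095 gaps next to a lone stretch alone covered 1189.7 Mb, or 49.7% of the span. The nearest gap of lone stretches had a median of 185.3 kb and an interquartile range of 130.8 to 327.8 kb, and the gap on the farther side a median of 558.7 kb. The farther gap was 2.22 times the nearer at the median, and the nearer side was the one of lower coordinates for 48.5% of lone stretches. Most lay close to the boundary: 681 (54.1%) had a nearest gap of at most 200 kb, 424 (33.7%) of 200 to 500 kb, and 46 (3.66%) of over 1 Mb. All these values are set in part by the rule.

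The surroundings of lone stretches ranged from empty to crowded. Within 1 Mb on either side, lone stretches had a median of 10 other stretches, with an interquartile range of 5 to 19 and a maximum of 89. Stretches of isolated clusters, which passed the same distance rule, had a median of 13 (7 to 22), counting the others of their own cluster. Neighboured stretches had a median of 32 (16 to 55). Some lone stretches thus lay a little over 100 kb from a region rich in stretches, while 46 of them (3.66%) had no other within 1 Mb.

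Some lone stretches followed each other in runs. Of the 1258, 687 (54.6%) had another lone stretch as the next stretch on at least 1 side, in 266 runs of 2 or more. The rule sets part of this count, since the stretch next to a lone one already has a gap over 100 kb on the shared side. The longest run held 11 lone stretches over 6.60 Mb at chr19:16459676-23061525, all of 100 to 200 bp. Runs of 7 lay at chr8:49731626-60255850 (10.5 Mb, stretches of 100 to 175 bp) and at chr15:12964126-23404175 (10.4 Mb, 125 to 400 bp) and at chr15:89644851-91881750 (2.24 Mb, 100 to 325 bp). The mean stretch length of these 4 runs was 135.7 to 192.9 bp, and that of the 3 runs of 6 was 166.7 bp (chr7:46701226-49865425), 233.3 bp (chr4:14745326-17780875) and 245.8 bp (chr18:51462426-53843125). The 7 means thus lay on both sides of the 205.6 bp of all lone stretches. The nearest cluster to a lone stretch held a single stretch in 64.3% of cases (61.6 to 67.0), against 60.7% (57.2 to 64.1) for isolated clusters of 2 or more and 59.6% (58.5 to 60.6) for clusters that were not isolated. The interval for lone stretches overlaps that of other isolated clusters and lies above that of clusters that were not isolated. Clusters next to each other can each be the other's nearest, so these intervals may be too narrow.

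The 10 most isolated lone stretches had more than 2 Mb without a listed stretch on both sides. The most isolated lay at chr17:39985001-39985125, with 125 bp of enrichment, 2.77 Mb from the stretch before it and 3.17 Mb from the one after. On chromosome 6, the 375 bp stretch chr6:103679251-103679625 had gaps of 2.58 and 3.80 Mb. On chromosome 2, the 150 bp stretch chr2:42508426-42508575 had gaps of 3.64 and 2.34 Mb. These 3 show that both short and longer stretches can be far from any other. A stretch of 175 bp at chr8:52001826-52002000 had gaps of 2.27 and 3.61 Mb, and belongs to the run of 7 on that chromosome. The next were at chr19:50752401-50752800 (400 bp) and at chr11:26287051-26287275 (225 bp), with nearest gaps of 2.25 and 2.19 Mb. Chromosome 15 held 2 that are each other's neighbours, chr15:16785551-16785675 (125 bp) and chr15:18943076-18943225 (150 bp), separated by 2.16 Mb within its run of 7. A stretch of 200 bp at chr4:77857476-77857675 and one of 375 bp at chr16:67620676-67621050 completed the 10. The latter had 5.04 Mb without a stretch on its side of higher coordinates. Whether any of these 10 comes from ribosomal RNA or repeated sequence was not analysed here. The 10 lengths ran from 125 to 400 bp, and 4 of them exceeded 200 bp.

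The longest lone stretches lay at varied distances from their neighbours. The longest, 1300 bp in 7 rows, lay at chr4:124335476-124336775, with a nearest gap of 145.2 kb and 21 other stretches within 1 Mb. It was followed by 1100 bp at chr13:60862076-60863175, with gaps of 583.4 kb and 2.25 Mb, and 900 bp at chr6:39822051-39822950, with a nearest gap of 261.9 kb. Stretches of 800 bp at chr7:106036126-106036925 and of 750 bp at chr12:79326801-79327550 came next, with nearest gaps of 171.7 and 457.3 kb. Of these 5 nearest gaps, 2 were below the lone median of 185.3 kb and 2 were above the upper quartile of 327.8 kb.

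Chromosomes differed more in the share of their stretches that were lone than in the number of lone stretches per length. These shares leave out the first and last stretch of each chromosome. The share was highest on chromosome 13, where 73 of 640 stretches were lone (11.4%, 9.05 to 14.1), followed by chromosomes 14 (9.66%, 7.505 to 12.2) and 6 (9.07%, 7.29 to 11.1). It was lowest on chromosomes 11 (58 of 1581, 3.67%, 2.80 to 4.72), 7 (4.37%, 3.35 to 5.59) and 9 (4.66%, 3.51 to 6.05). The highest share was 3.11 times the lowest, and the mean was 7.09% ± 2.02 (SD, n = 19 chromosomes). The intervals of chromosomes 13, 14 and 6 overlap one another, as do those of 11, 7 and 9, while each of the first 3 lies above each of the last 3. Per 10 Mb of span, lone stretches numbered 5.36 ± 0.784 (SD, n = 19 chromosomes). Chromosome 7 had 4.02 and chromosome 18 had 6.89, a ratio of 1.71. In absolute number chromosome 2 held the most, 100 (7.95% of all lone stretches), and chromosome 19 the fewest, 39 (3.10%).

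The share of lone stretches was lower on chromosomes with many stretches and many genes. Over the 19 chromosomes it correlated with stretches per Mb of span with r = -0.84 (Pearson) and rho = -0.89 (Spearman), and r was -0.86 without the 2 chromosomes of most extreme density, 11 and 19. Both measures contain the number of stretches, and a denser chromosome leaves less room for gaps over 100 kb, so this is a description only. With protein-coding genes per Mb, from a RefSeq table of GRCm38.p6 and the span in the list, r was -0.77 and rho -0.80, and r was -0.65 without chromosomes 7 and 11. The share is again divided by the number of stretches, so this too is a description only. Chromosome 13 had 7.11 genes per Mb and chromosome 11 had 13.6. The number of lone stretches per 10 Mb had r = -0.08 and rho = -0.18 with stretch density, and r = -0.25 and rho = -0.25 with gene density. Chromosome 19, with 12.1 genes per Mb, had 6.71 lone stretches per 10 Mb, next after chromosome 18 with 5.95 genes per Mb. Other gene-rich chromosomes had fewer. Chromosome 7, with the most genes per Mb (13.6), had the fewest lone stretches per 10 Mb, 4.02. Chromosomes 11 and 17, with 13.6 and 11.5 genes per Mb, had 4.89 and 5.10. Gene-rich and gene-poor chromosomes alike thus had between 4.02 and 6.89 lone stretches per 10 Mb. Gene density around single lone stretches and the length of the genes that hold them were not analysed here.

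**Figure D4:**
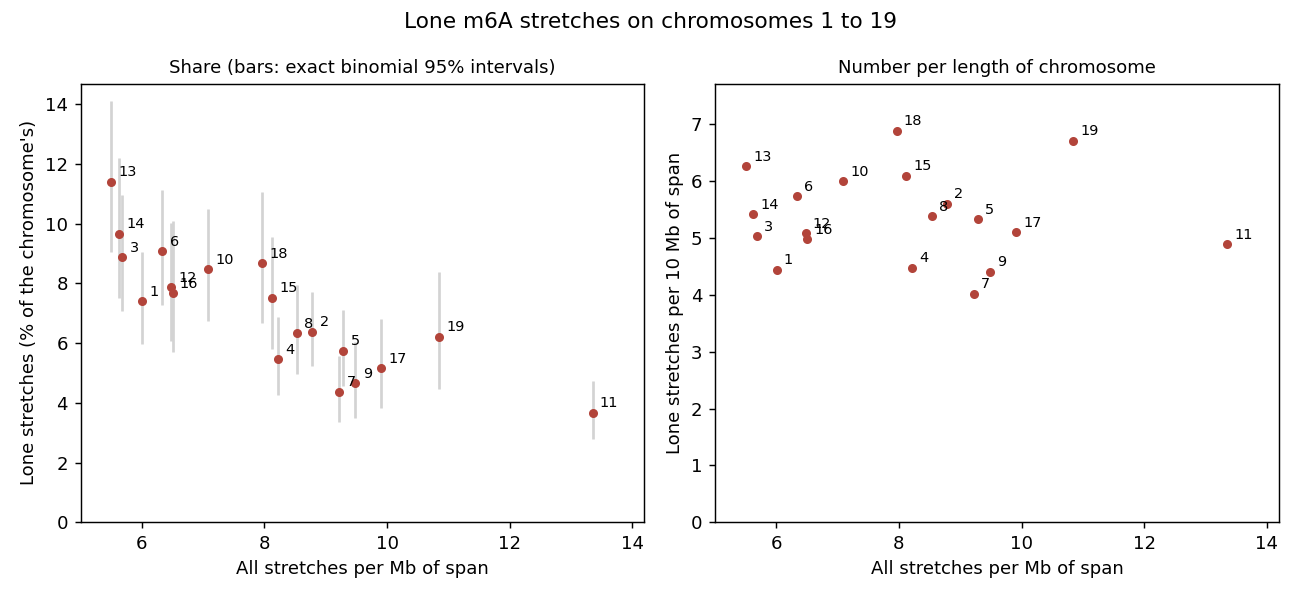
Lone stretches on chromosomes 1 to 19 (points labelled by chromosome) against all stretches per Mb of span, as a percentage of the chromosome's stretches with exact binomial 95% intervals (left) and as a number per 10 Mb of span (right). Percentages leave out the first and last stretch of each chromosome. The percentage falls from 11.4% on chromosome 13 to 3.67% on chromosome 11, while the number per 10 Mb stays between 4.02 and 6.89.

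Along the chromosomes, lone stretches were spread more evenly than neighboured ones. The rule sets part of this, since it keeps lone stretches over 100 kb apart, while neighboured ones lie close together by definition. With the span of each chromosome cut into 10 equal parts, each part held 9.06% to 11.4% of the lone stretches. Stretches in isolated clusters of 2 or more, which passed the same distance rule, ranged from 8.38% to 11.8%. For neighboured stretches the range was 7.15% to 14.1%, with the highest shares in the last 2 parts, toward the higher coordinates. These last 2 parts together held 20.6% (18.4 to 22.9) of lone stretches, 27.8% (27.1 to 28.6) of neighboured stretches and 23.3% (21.6 to 25.1) of stretches in isolated clusters of 2 or more. The share of lone stretches there was below that of neighboured stretches on 12 chromosomes and above it on 7. Stretches of the same cluster fall into the same part, so the intervals of the neighboured and clustered groups are too narrow.

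**Figure D5:**
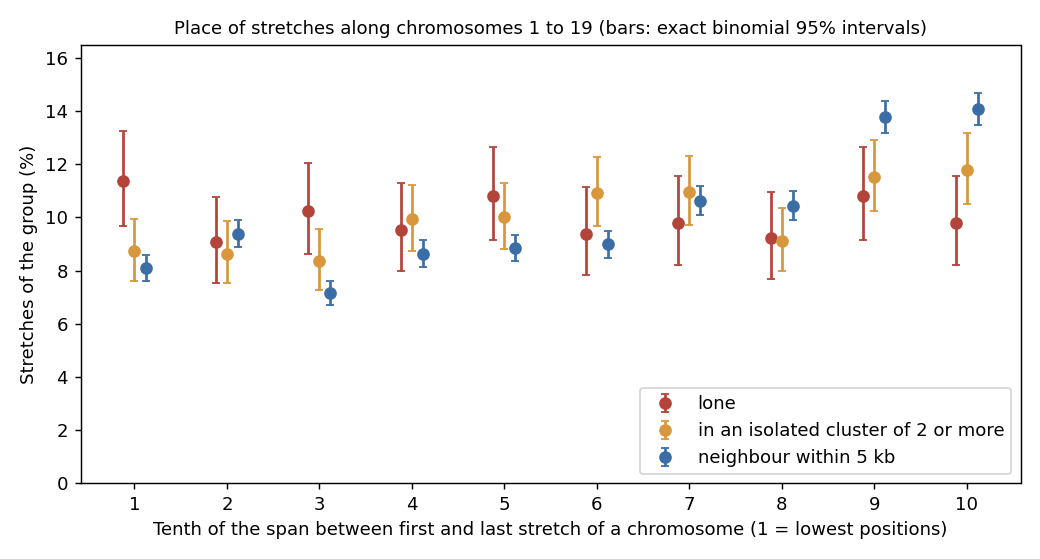
Percentage of each group's stretches (vertical axis) in each of 10 equal parts of the span of a chromosome (horizontal axis, 1 has the lowest coordinates), for lone stretches (red), stretches in isolated clusters of 2 or more (orange) and neighboured stretches (blue), with exact binomial 95% intervals as bars. Red points lie between 9.06% and 11.4%, and blue points reach 14.1% in the last part.

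In windows of 10 Mb, lone stretches were present almost everywhere, as were neighboured stretches. Of 257 windows with a stretch, 246 held at least 1 lone stretch, with a median of 5. The most, 13, lay on chromosome 6 (chr6:30000001-40000000), among 68 stretches in all. The windows chr12:30000001-40000000 and chr13:90000001-100000000 held 12 each. In the window of chromosome 12 they were 12 of 34 stretches (35.3%), compared with 21.4% in that of chromosome 13. There followed 3 windows with 11 lone stretches, chr3:50000001-60000000 and the adjoining chr18:40000001-50000000 and chr18:50000001-60000000.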

How the data were processed

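The authors deposited 1 list for all 6 libraries, with chromosome, start and end of each row and no other value. Tools named in the submitters' processing notes are BWA (0.6.2-r126) and SAMtools (0.1.18), and the build is mm9. The sources used here do not state how regions were called, at which threshold, or how the inputs entered. Rows on chromosomes 1 to 19 with a gap of 0 bp were joined, gaps were taken between consecutive stretches, and 651 rows elsewhere were left out. The joining of rows and the choice of lone stretches were tested on a simulated list. Clusters, runs, places along the chromosome and windows were not tested in this way. Software was Python 3.11.15, scipy 1.17.1, pandas 2.3.3 and numpy 2.4.6. Protein-coding genes per chromosome came from a RefSeq table of GRCm38.p6, and no coordinate was compared between builds. Named stretches were the 10 with the greatest nearest gap, the 5 longest, the 3 on either side of the boundary and the 5 windows of 10 Mb with the most lone stretches, with ties at the last rank given. The members and lists were chosen with earlier results of these data known. Alternatives were other gaps, other joining, chromosome X, no stretches of 100 bp, other neighbour distances and 1 value per cluster. Analyses that need genes or motifs were not run.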

Additional observations from a re-analysis of the deposited data

Results flagged for a closer look

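Some stretches outside the rule, on chromosome X and at the ends of autosomes, also lay far from others. On chromosome X, with first and last stretch left out, 66 of 435 stretches were lone by the same rule (15.2%, exact binomial 95% interval 11.9 to 18.9). This was a higher share than on any of the 19 autosomes, although its interval overlaps those of chromosomes 13 and 14. X also had the lowest stretch density, 2.72 per Mb of span, and 4.11 lone stretches per 10 Mb, within the range of the autosomes. Its lone stretches had a median of 150 bp and averaged 188.6 bp ± 101.1 (SD over 66 stretches). Its 240 neighboured stretches averaged 208.3 bp. The share over 200 bp was 30.3% (19.6 to 42.9) of lone and 34.2% of neighboured stretches on X. Among the 38 first and last stretches of autosomes, 6 had a gap over 100 kb on their only side, with a mean length of 179.2 bp ± 62.1 (SD over 6 stretches). Over all gaps between autosomal stretches, 22.1% exceeded 100 kb, so such a gap was not particular to the ends.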

How the results depend on the processing

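The lower length of lone stretches held in direction under every alternative run. The difference in mean length to neighboured stretches was 31.5 to 40.2 bp and that in the share over 200 bp was 10.03 to 12.02 percentage points, including with each chromosome left out in turn, which was added after seeing the data. The number of lone stretches depended on the gap: 2229 at 50 kb and 577 at 200 kb, against 1258. With it moved the lone share of chromosome 13 (18.4% and 5.47%) and of chromosome 11 (8.10% and 1.33%), and at 200 kb the median of other stretches within 1 Mb was 6. Joining rows within 100 bp raised the number of lone stretches to 1382 and their mean length to 241.3 bp. It cannot lengthen a stretch that was already lone, so the added members were close stretches joined into 1. Leaving out stretches of 100 bp raised the mean to 221.0 bp, since it drops the shortest. The latter also gave a lone share of 14.23% on chromosome 13. Of the 15 named stretches, 13 were still lone at 200 kb and all 15 under the other 4 choices that change the members. The gaps and lengths of the 15 largely fix these counts in advance, so they are no test of stability. No paired analysis was possible because single libraries have no values in the list, which also keeps replicates from being left out. Alternatives for genes and motifs were not run, as no mm9 annotation or genome was used. Transcript level, depth and the peak threshold can leave a region unlisted, so a gap is an absence from the list and not of m6A.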
